A study of Mus musculus with 15 samples.

Results

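Interferon-stimulated genes are the genes that cells switch on after interferon binds its receptor, and 37 of them, listed by symbol from general knowledge of the response, were followed here across developing dendritic cells (DCs) of mouse bone marrow. A gene was kept where a probe set was annotated to its symbol and to no other, which left 32 of the 37 genes, among 19938 genes measured in all. The 5 others were Isg15, whose probe set is shared with Gm9706, Gbp2, shared with Gbp2b, Igtp and Irgm2, which share a probe set, and Ifi44, whose symbol was not in the probe annotation. Cells of 2 stages were sorted: common dendritic cell progenitors (CDPs), and cells positive for a green fluorescent reporter of Zbtb46 with intermediate c-Kit (Zbtb46-GFP+). Each stage came from wild-type (WT), Batf3 knockout (Batf3 KO) and Id2 knockout (Id2 KO) bone marrow, and all 6 groups carried the Zbtb46-GFP reporter. The labels call the WT and Id2 KO mice chimeric and the Batf3 KO mice reporter mice, so the kind of mouse and the Batf3 genotype cannot be told apart. The donor, host, age and number of mice behind an array are not given in the labels, and p-values measure the spread between arrays, which may be partly technical.

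Type I and type III interferons act through JAK1 and TYK2 kinases to bring a complex with STAT2 and IRF9 to interferon-stimulated response elements, while interferon gamma acts through JAK1 and JAK2 on gamma-activated sites. The genes they switch on encode sensors of viral nucleic acid, enzymes that degrade or edit viral RNA, proteins that block viral entry or translation, and regulators of the signal itself. Many are held at a tonic level in uninfected cells. Zbtb46 marks the classical DC lineage. Batf3, of the AP-1 family, is needed for cDC1 cells, and Id2 binds and blocks E proteins, which direct plasmacytoid DC (pDC) development. The series asks for the expression signatures of DC progenitors and their order in time, and the comparisons set the stages against each other in each genotype and the genotypes against each other in each stage.

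Signal was read on 15 arrays, with 2 CDP arrays and 3 Zbtb46-GFP+ arrays for each genotype. The Zbtb46-GFP+ arrays numbered 1 were dimmer in all 3 genotypes, where the median probe set read 23.8 to 24.1, than the other 12, where it read 100.8 to 112.1. Tests therefore used the 12 arrays, 2 per group, and the 3 replicate 1 arrays are described apart. Values below are log2 of the deposited signal, and a difference of 1 is a doubling. On the 12 arrays Batf3 read 9.85 and 9.99 in WT Zbtb46-GFP+ cells, 6.89 and 7.32 in Batf3 KO and 8.21 and 8.38 in Id2 KO, against 6.87 to 7.25 in CDPs. Id2 read 11.47 and 12 in WT Zbtb46-GFP+ cells, 11.14 and 11.56 in Batf3 KO and 8.39 and 8.82 in Id2 KO, against 5.96 to 7.83 in CDPs. Each targeted gene was lowest of the 3 Zbtb46-GFP+ groups where the label says it was deleted, but the Id2 probe set still read higher there than in any CDP array. Of 6 classical DC markers, the limma test below called 5 higher in Zbtb46-GFP+ cells than in CDPs in WT. It called 3 in Batf3 KO and 4 in Id2 KO. The MHC class II gene H2-Aa of this list read 6.35 to 7.54 on the CDP arrays and 13.19 to 13.62 on the Zbtb46-GFP+ arrays. Flt3 overlapped, at 11.16 to 11.58 and 10.99 to 11.92. Of 5 CDP markers, 1 was higher and 2 lower in each genotype. Cd34 read 11.06 to 11.53 in CDPs and 8.755 to 9.12 in Zbtb46-GFP+ cells, but Kit 9.41 to 9.92 and 10.32 to 11.37. Zbtb46 itself read 6.99 and 7.18 in WT Zbtb46-GFP+ cells but 5.95 to 6.08 in the knockout ones, close to the 5.68 to 6.07 of CDPs. Xist read 11.93 to 12.42 on the 4 WT arrays and 5.06 to 5.71 on the 8 knockout arrays, so the sex of the cells and the genotype cannot be told apart on these 12 arrays.

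To show the element through which type I interferon acts on many such genes, promoter sequence was taken from RefSeq (mouse build GRCm38.p6), which held a window for 28 of the 37 genes. The core of the interferon-stimulated response element, TTTC and TTTC with any 2 bases between them, searched on both strands, was present in the 250 bases before the start of 14 of these 28 genes, against 3.46% of the 27025 genes in the table. The core of the gamma-activated site, TTCNNNGAA, which reads the same on both strands, was present in 7 of the 28, against 8.13% of genes. The stretches below belong to 4 genes whose signal was higher in Zbtb46-GFP+ cells than in CDPs in 1 or more genotypes and to 2 guanylate-binding protein genes, Gbp3, whose signal was lower, and its neighbour Gbp7, which was not called. Each is 70 bases, written 5′ to 3′ on the strand of the gene, with the response element core in capitals.
Ifit1: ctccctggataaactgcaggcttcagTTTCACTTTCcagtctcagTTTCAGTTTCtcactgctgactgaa
Ifit3: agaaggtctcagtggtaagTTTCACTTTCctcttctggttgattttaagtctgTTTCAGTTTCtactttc
Rsad2: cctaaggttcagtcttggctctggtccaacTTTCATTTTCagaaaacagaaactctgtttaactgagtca
Oas3: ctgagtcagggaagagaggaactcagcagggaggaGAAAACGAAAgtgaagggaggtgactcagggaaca
Gbp3: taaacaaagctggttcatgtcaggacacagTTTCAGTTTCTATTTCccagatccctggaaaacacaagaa
Gbp7: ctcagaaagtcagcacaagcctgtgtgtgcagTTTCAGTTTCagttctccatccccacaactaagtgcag

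The Ifit1 stretch lies at chr19:34640759-34640828 on the plus strand and the Ifit3 stretch at chr19:34583354-34583423 on the plus strand, and each holds 2 separate matches. The Rsad2 stretch lies at chr12:26456533-26456602 and the Oas3 stretch at chr5:120777700-120777769, both on the minus strand. The Gbp3 stretch, at chr3:142559969-142560038 on the plus strand, holds 2 matches that overlap, and the Gbp7 stretch, at chr3:142530251-142530320 on the plus strand, holds 1. Of the 16 genes with a window that were called in a stage comparison, 7 held the response element core and 2 the gamma-activated site core. Among all 28 genes with a window these counts were 14 and 7. Gbp5, Gbp7 and Irgm1, measured but not called, also held the response element core. Among the guanylate-binding and IRG GTPase genes, the response element core was present in Gbp2, Gbp3, Gbp5, Gbp7, Igtp, Irgm1 and Irgm2. Several genes lie close together in the genome: Ifit1, Ifit2 and Ifit3 on chromosome 19, the Gbp genes on chromosome 3, Parp9, Dtx3l and Parp14 on chromosome 16, Rsad2 and Cmpk2 on chromosome 12, and Oas2 with Oas3 and Oasl1 with Oasl2 on chromosome 5. At most 3 other genes lie between neighbours in the Ifit group, 1 in the Gbp group and 0 in the others. Such neighbours are related in sequence in the Ifit, Gbp and Oas families, so their probe sets may share signal.

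In WT bone marrow most of the interferon-stimulated genes were higher in Zbtb46-GFP+ cells than in CDPs. Of the 32 genes, 18 were higher and 1, Gbp3, was lower (limma, 2 arrays per group, adjusted p under 0.05 with Benjamini-Hochberg adjustment over all 19938 genes), while 11.1% of all genes were called, 4.71% higher and 6.38% lower. The median change of the 32 genes was 0.98, against 0.03 over all genes. The same step called 16 genes higher and Gbp3 lower in Batf3 KO, where 7.18% of all genes were called, 3.87% higher and 3.32% lower, and the median change was 0.88 against 0.01. In Id2 KO 11 genes were called higher and Gbp3 lower, where 6.82% of all genes were called, 3.84% higher and 2.98% lower, and the median was 0.62 against 0.01. For 19 of the 32 genes every Zbtb46-GFP+ array of any genotype stood above every CDP array, which held for 5.93% of all genes. Gbp3 was the 1 gene of the 32 with every Zbtb46-GFP+ array below every CDP array, against 9.21% of all genes. These counts depended on single arrays: the WT count of 19 calls was 9 without WT Zbtb46-GFP+ replicate 3, 11 without WT CDP replicate 2 and 12 without WT CDP replicate 1, and the Id2 KO count of 12 was 3 without Id2 KO Zbtb46-GFP+ replicate 2, 6 and 7 without Id2 KO CDP replicates 2 and 1, and 8 without Id2 KO Zbtb46-GFP+ replicate 3. On all 15 arrays with no term for the 3 dim ones, limma called 0 of the 32 genes in each step. An unadjusted p under 0.05 was found for 2, 3 and 2 of the 32 in WT, Batf3 KO and Id2 KO. The share of all genes called in these other fits is not given here, so the changes in count are not shown to be particular to the 32 genes. In bulk samples, a change in the share of cells that express a gene and a change per cell cannot be told apart.

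**Figure D1:**
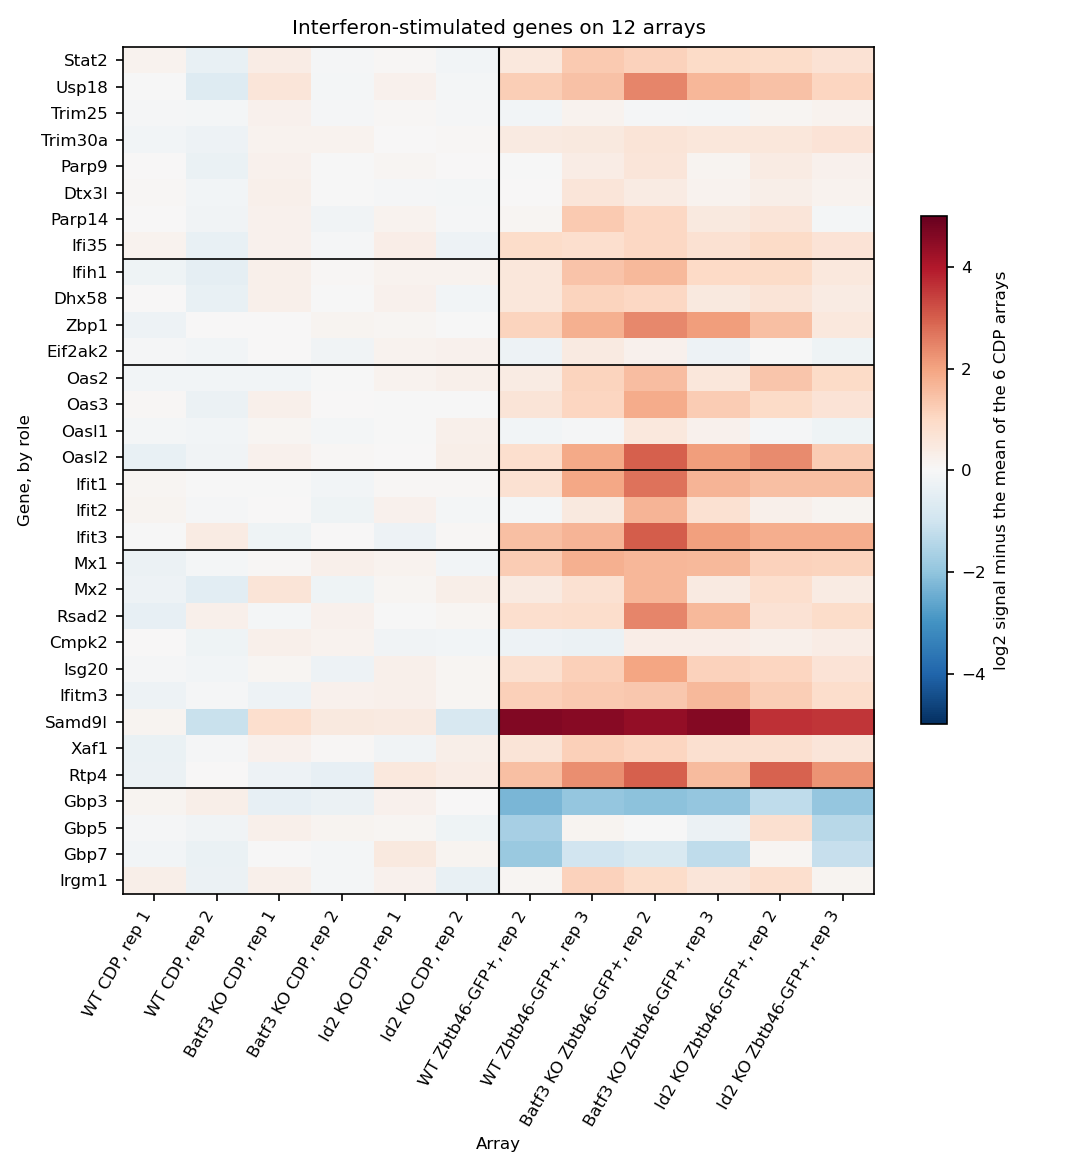
Log2 signal of each of the 32 genes (rows, grouped by role) on each of the 12 arrays (columns), minus the mean of the 6 CDP arrays, with red for higher and blue for lower. The 6 Zbtb46-GFP+ arrays on the right are red for most genes, with Samd9l the darkest and Gbp3 blue on all 6.

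All 3 steps called 10 of the 32 genes higher, and the matching share of all genes is not given here. Ifit1, Ifit3, Ifitm3, Mx1, Oas3, Oasl2, Rtp4, Samd9l, Trim30a and Usp18 were called higher in all 3 genotypes. Of these, Ifit3, Mx1 and Samd9l lost at most 1 call when each of the 12 arrays was left out in turn, whereas the Trim30a call in Batf3 KO was kept in 0 of the 12 fits and the Oas3 call in Id2 KO in 6. The 14 genes called higher in both the WT and the Batf3 KO step made up 77.8% of the WT list and 87.5% of the Batf3 KO list, against 66.7% and 81.3% for all genes called higher in these steps. The 10 genes called higher in both the WT and the Id2 KO step made up 55.6% of the WT list and 90.9% of the Id2 KO list, against 53.9% and 66.3% for all genes. These lists depend on the threshold, and a gene called in 1 genotype and not in another is not thereby shown to differ between them. Tested as an interaction of knockout with stage, none of the 32 genes passed: limma called 0 for Batf3 KO, where 0.0953% of all genes were called and 4 of the 32 had an unadjusted p under 0.05, and 0 for Id2 KO, where 0.321% were called and 2 of the 32 had such a p. Dtx3l, Eif2ak2, Gbp5, Gbp7, Irgm1, Mx2, Oasl1, Parp14, Parp9 and Trim25 passed the test in none of the 3 steps.

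**Figure D2:**
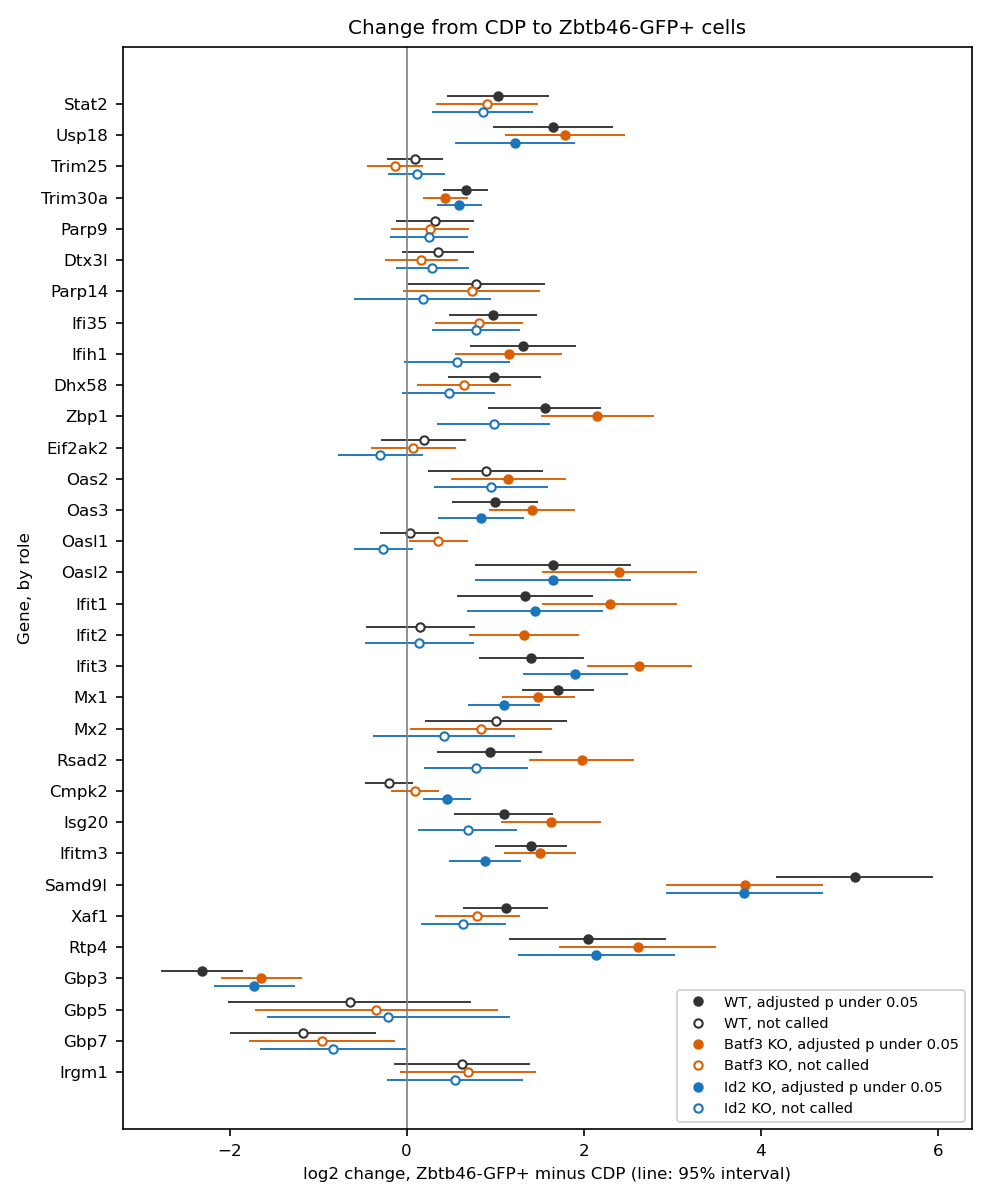
Log2 change from CDP to Zbtb46-GFP+ cells (x axis) for each of the 32 genes (y axis) in WT, Batf3 KO and Id2 KO, with 95% intervals from the limma fit and filled points where the adjusted p was under 0.05. Samd9l stands far to the right in all 3 genotypes, at 5.06, 3.82 and 3.82, and Gbp3 to the left, at -2.31, -1.64 and -1.72.

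Among the genes of signalling and ISG15 conjugation, 4 of 8 measured were higher in the WT step, 2 in the Batf3 KO step and 2 in the Id2 KO step. Usp18, which removes ISG15 from proteins and damps signalling at the type I interferon receptor, moved most of these in each genotype. It read 7.74 and 7.12 in WT CDPs, 8.36 and 7.65 in Batf3 KO CDPs and 7.95 and 7.66 in Id2 KO CDPs. In Zbtb46-GFP+ cells it read 8.97 and 9.20 in WT, 10.18 and 9.40 in Batf3 KO and 9.22 and 8.84 in Id2 KO, so the lowest Zbtb46-GFP+ array stood above the highest CDP array. The change was 1.65 ± 0.31 (SE, 2 arrays per group) in WT, a 3.14-fold difference, 1.79 ± 0.31 in Batf3 KO and 1.22 ± 0.31 in Id2 KO, with limma adjusted p-values of 0.00519, 0.00471 and 0.0373. Trim30a, a TRIM-family regulator of innate signalling, rose less but with a smaller error, by 0.67 ± 0.12 in WT, 0.44 ± 0.12 in Batf3 KO and 0.59 ± 0.12 in Id2 KO. The Batf3 KO call, at an adjusted p of 0.0446, was lost on leaving out any array. Its probe set may also read its Trim30 paralogs. Stat2, a signal transducer of the type I response, and Ifi35 rose in WT, by 1.03 and 0.98. Their changes in the knockouts were 0.91 and 0.86 for Stat2 and 0.82 and 0.79 for Ifi35, with adjusted p-values of 0.0537 to 0.0813. Trim25, a ubiquitin ligase of RIG-I signalling, Parp9 with its partner Dtx3l, and Parp14 were called in no genotype, with changes of -0.13 to 0.79.

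Among the sensors of viral nucleic acid, 3 of 4 were higher in the WT step, 2 in the Batf3 KO step and 0 in the Id2 KO step. Zbp1, a sensor of Z-form nucleic acid that can trigger cell death, moved most. Its CDP arrays read 6.81 and 7.06 in WT, 7.08 and 7.21 in Batf3 KO and 7.14 and 7.03 in Id2 KO. Its Zbtb46-GFP+ arrays read 8.17 and 8.82 in WT, 9.47 and 9.13 in Batf3 KO and 8.56 and 7.58 in Id2 KO, where the 2 arrays were furthest apart. The change was 1.56 ± 0.29 in WT (limma adjusted p = 0.00515), 2.15 ± 0.29 in Batf3 KO (0.0011) and 0.99 ± 0.29 in Id2 KO (0.0717), the last short of the threshold. Ifih1, which encodes the long double-stranded RNA sensor MDA5, rose by 1.31 in WT and 1.15 in Batf3 KO and measured 0.57 in Id2 KO. Dhx58, which encodes the related helicase LGP2, rose by 0.99 in WT and measured 0.64 in Batf3 KO and 0.47 in Id2 KO. Eif2ak2, the kinase PKR that stops translation, measured 0.19, 0.07 and -0.30 in WT, Batf3 KO and Id2 KO, none of them called.

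The 2′-5′-oligoadenylate synthetase family makes, in its active members, the messenger that switches on RNase L, and 2 of its 4 measured genes rose in the WT step, 3 in the Batf3 KO step and 2 in the Id2 KO step. Oasl2 read 6.85 and 7.05 in WT CDPs, 7.46 and 7.29 in Batf3 KO CDPs and 7.25 and 7.52 in Id2 KO CDPs. In Zbtb46-GFP+ cells it read 8.08 and 9.12 in WT, 10.21 and 9.34 in Batf3 KO and 9.59 and 8.49 in Id2 KO, so the groups of the 2 stages did not overlap while arrays of a group lay about a unit apart. Its change was 1.65 ± 0.40 in WT, 2.40 ± 0.40 in Batf3 KO and 1.65 ± 0.40 in Id2 KO, with limma adjusted p-values of 0.0214, 0.0038 and 0.0311. Oas3, whose promoter stretch is printed above, rose by 0.99, 1.42 and 0.84 in the same order. Oas2 rose by 1.15 in Batf3 KO and measured 0.89 in WT and 0.95 in Id2 KO, both short of the threshold. Oasl1, a family member known as a brake on Irf7 translation, measured 0.04, 0.36 and -0.26 and was not called.

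The IFIT proteins bind viral RNA and hold back its translation. Ifit3 read 6.35 and 6.76 in WT CDPs, 6.14 and 6.39 in Batf3 KO CDPs and 6.12 and 6.43 in Id2 KO CDPs. It read 7.87 and 8.06 in WT Zbtb46-GFP+ cells, 9.38 and 8.40 in Batf3 KO and 8.19 and 8.18 in Id2 KO, so the Batf3 KO arrays were the highest and also the furthest apart. The change was 1.41 ± 0.27 in WT, 2.63 ± 0.27 in Batf3 KO, a 6.18-fold difference, and 1.91 ± 0.27 in Id2 KO, with limma adjusted p-values of 0.00618, 0.000208 and 0.00167. Ifit1, with 2 response element cores in its promoter stretch, rose by 1.33 in WT, 2.29 in Batf3 KO and 1.45 in Id2 KO. Ifit2 lies beside them on the chromosome and gave a different reading, at 7.24 and 7.05 in WT CDPs and 7.01 and 7.60 in WT Zbtb46-GFP+ cells. In Batf3 KO it read 7.13 and 6.91 in CDPs and 8.81 and 7.87 in Zbtb46-GFP+ cells, and in Id2 KO 7.34 and 6.99, then 7.38 and 7.24. It was called only in Batf3 KO, at 1.32 ± 0.28 (limma adjusted p = 0.0154), against 0.15 in WT and 0.14 in Id2 KO, and its interaction of Batf3 KO with stage, 1.17, did not pass. The Ifit3 probe set may also read its near-identical copy Ifit3b.

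Among the other antiviral effectors, 7 of 9 rose in the WT step, 6 in the Batf3 KO step and 5 in the Id2 KO step. Samd9l, an interferon-induced restriction factor and regulator of blood cell growth, had the largest change of the 32 genes in each genotype. It read 7.04 and 5.79 in WT CDPs, 7.71 and 7.40 in Batf3 KO CDPs and 7.32 and 6.08 in Id2 KO CDPs, with 2 of the 3 groups spread over more than a unit. In Zbtb46-GFP+ cells it read 11.53 and 11.43 in WT, 11.27 and 11.47 in Batf3 KO and 10.55 and 10.48 in Id2 KO, far above every CDP array. The change was 5.06 ± 0.40 in WT, a 33.4-fold difference, and 3.82 ± 0.40 in each knockout, with limma adjusted p-values of 2.04e-05, 0.000241 in Batf3 KO and 0.000327 in Id2 KO. No response element core was found in the window of Samd9l. Its interactions with stage were -1.24 (95% interval -2.50 to 0.01) for Batf3 KO and -1.25 (-2.50 to 0.01) for Id2 KO, and neither passed.

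Rtp4, a chaperone of receptors that is strongly induced by type I interferon, rose by 2.05 in WT, 2.61 in Batf3 KO and 2.14 in Id2 KO. Mx1, a dynamin-like GTPase that blocks influenza virus, rose by 1.71, 1.49 and 1.09, and Ifitm3, which blocks virus entry at endosomes, by 1.40, 1.50 and 0.89. Isg20, an RNA exonuclease, rose by 1.09 in WT and 1.63 in Batf3 KO and measured 0.69 in Id2 KO. Xaf1, a pro-apoptotic gene, rose by 1.12 in WT and measured 0.80 (limma adjusted p = 0.0502) and 0.64 in the knockouts. Mx2 measured 1.00, 0.84 and 0.42 and was called in none. Rsad2, which encodes viperin, an enzyme that makes a chain-terminating nucleotide, read 6.49 and 7.18 in WT CDPs, 6.80 and 7.11 in Batf3 KO CDPs and 6.89 and 7.01 in Id2 KO CDPs. Its Zbtb46-GFP+ arrays read 7.76 and 7.78 in WT, 9.34 and 8.52 in Batf3 KO and 7.63 and 7.83 in Id2 KO, so those of Batf3 KO stood above the other 4. Rsad2 rose by 0.94 ± 0.27 in WT (limma adjusted p = 0.0468) and 1.98 ± 0.27 in Batf3 KO (0.00114) and measured 0.78 ± 0.27 in Id2 KO (0.13). Its WT call was kept in 3 of the 12 fits that left out an array, and its Batf3 KO call in all 12.

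The interferon-inducible GTPases, which attack the vacuoles of intracellular pathogens and are best known as targets of interferon gamma, were measured by 4 genes. Of these, 0 rose and Gbp3 fell in each of the 3 steps. Gbp3 read 9.39 and 9.56 in WT CDPs, 8.87 and 8.98 in Batf3 KO CDPs and 9.49 and 9.29 in Id2 KO CDPs. It read 6.98 and 7.34 in WT Zbtb46-GFP+ cells, 7.22 and 7.34 in Batf3 KO and 8.01 and 7.33 in Id2 KO, all below the lowest CDP array. The change was -2.31 ± 0.21 in WT (limma adjusted p = 4.52e-05), -1.64 ± 0.21 in Batf3 KO (0.000808) and -1.72 ± 0.21 in Id2 KO (0.000725). Gbp7 measured -1.17, -0.96 and -0.83 with adjusted p-values of 0.0731, 0.189 and 0.29, and its arrays spread widely, for example 8.25 and 7.02 in Id2 KO Zbtb46-GFP+ cells. Gbp5 measured -0.64, -0.34 and -0.21, with 5.20 and 6.99 on the WT Zbtb46-GFP+ arrays. Irgm1, of the IRG family, measured 0.62, 0.70 and 0.55 and was not called. Gbp3 and Gbp7 hold the same response element core as Ifit1 and Ifit3, as printed above.

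Within a stage, 1 of the 32 genes passed the test between genotypes, and it did so in Zbtb46-GFP+ cells. In CDPs limma called 0 of the 32 genes for Batf3 KO against WT, where 0.0502% of all genes were called and 4 of the 32 had an unadjusted p under 0.05, and 0 for Id2 KO against WT, where 0.0251% were called and 0 had such a p. The median difference was 0.18 for Batf3 KO, against 0.01 over all genes, and 0.22 for Id2 KO, against 0.002, and 27 of the 32 differences were above 0 in each, against 54.7% and 50.7% of all genes. Leaving out an array moved the Batf3 KO median between 0.10, without WT CDP replicate 2, and 0.28, without Batf3 KO CDP replicate 2, and the Id2 KO median between 0.07, without WT CDP replicate 2, and 0.28, without WT CDP replicate 1. These comparisons share the 2 WT CDP arrays. WT CDPs held the lowest mean of the 6 groups for 20 of the 32 genes. Most of the 32 genes were lower in CDPs than in Zbtb46-GFP+ cells, so this is largely an order among the CDP groups. The share of all genes with this order is not given here, so the count is not shown to be particular to the 32 genes. The largest CDP difference was that of Samd9l in Batf3 KO, 1.14 (95% interval 0.25 to 2.02), which did not pass after adjustment.

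In Zbtb46-GFP+ cells, limma called 0 of the 32 genes for Batf3 KO against WT, where 0.336% of all genes were called. Of the 32 differences, 27 were above 0, against 52% of all genes, and 10 had an unadjusted p under 0.05, against 4.45% of all genes. Their median was 0.31, against 0.01 over all genes, but it was -0.01 without WT Zbtb46-GFP+ replicate 2 and 0.62 without WT Zbtb46-GFP+ replicate 3 or Batf3 KO Zbtb46-GFP+ replicate 3. The 10 genes were Oasl2 (1.18, 95% interval 0.30 to 2.06), Rsad2 (1.16), Ifit2 (1.04), Ifit3 (0.93), Ifit1 (0.86), Zbp1 (0.80), Usp18 (0.71), Oas3 (0.70), Cmpk2 (0.61) and Oasl1 (0.46), with limma adjusted p-values from 0.0934 for Cmpk2 upward. Batf3 KO held the highest mean of the 3 Zbtb46-GFP+ groups for 22 of the 32 genes, and the matching share of all genes is not given here. Samd9l (-0.11, 95% interval -0.99 to 0.78) and Mx1 (0.12, -0.29 to 0.53), both among the genes that rose from CDP to Zbtb46-GFP+ cells, gave differences around 0.

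Between Id2 KO and Batf3 KO Zbtb46-GFP+ cells limma called 0 of the 32 genes, where 0.592% of all genes were called. The median difference was -0.35, against -0.01 over all genes. Of the 32 differences 26 were below 0 and 6 above, while 47.1% of all genes were above 0. An unadjusted p under 0.05 was found for 10 of the 32, against 5.43% of all genes. Rsad2 (-1.20, limma adjusted p = 0.103) and Zbp1 (-1.23, 0.139) were the closest to the threshold. The median ranged from -0.14 without Batf3 KO Zbtb46-GFP+ replicate 2 to -0.60 without Id2 KO Zbtb46-GFP+ replicate 2. With a block for the signal level of the arrays, described with its limits below, 6 of the 32 genes were called. This comparison shares the Batf3 KO arrays with the one before it, so the 2 are not independent.

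For Id2 KO against WT in Zbtb46-GFP+ cells the median was -0.04 against -0.02 over all genes. Of the 32 differences 14 were above 0, against 46.4% of all genes. The median ranged from -0.25 without WT Zbtb46-GFP+ replicate 2 to 0.18 without WT Zbtb46-GFP+ replicate 3. Limma called 1 gene, Cmpk2, where 1.81% of all genes were called, with 1.09% higher and 0.717% lower. Cmpk2, a mitochondrial nucleotide kinase, read 8.63 and 8.59 in WT, 9.23 and 9.21 in Batf3 KO and 9.17 and 9.25 in Id2 KO Zbtb46-GFP+ cells, so both knockouts stood above WT by about the same amount. In CDPs it read 8.92 and 8.70 in WT, 9.17 and 9.09 in Batf3 KO and 8.74 and 8.78 in Id2 KO. The Id2 KO difference was 0.60 ± 0.12 (adjusted p = 0.0319), and that of Batf3 KO was 0.61 ± 0.12 (0.0934). The call for Id2 KO was lost on leaving out any of 8 of the 12 arrays in turn. Cmpk2 lies on chromosome 12 with 2 protein-coding genes between it and the targeted Id2, and Rsad2 with 1. Samd9l (-0.96, 95% interval -1.85 to -0.08) and Gbp7 (0.88, 0.05 to 1.70) did not pass after adjustment.

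**Figure D3:**
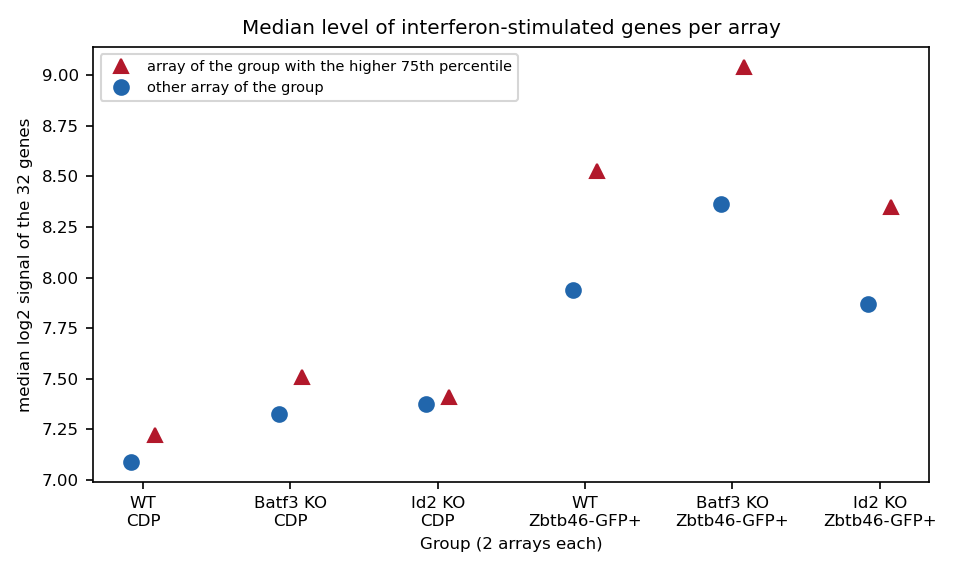
Median log2 signal of the 32 genes on each of the 12 arrays (y axis) by group (x axis), with a triangle for the array of the group whose 75th percentile of all probe sets was higher. The CDP arrays lie between 7.09 and 7.51 and the Zbtb46-GFP+ arrays between 7.87 and 9.04, with the triangle above the circle in each group.

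The 2 arrays of a group differed across many of these genes at once. In each group the array with the higher 75th percentile of signal also read higher for most of the 32 genes: 22 in WT CDPs, 25 in Batf3 KO CDPs, 21 in Id2 KO CDPs, and 29, 29 and 27 in WT, Batf3 KO and Id2 KO Zbtb46-GFP+ cells. Over all genes this share was 44.4% to 54.9%. That share includes dim genes, while most of the 32 genes have a mean signal above that of the median gene. The arrays were also ranked by their own 75th percentile, so this pattern is not shown to be particular to the 32 genes. The median of the 32 genes on the 2 Zbtb46-GFP+ arrays was 7.94 and 8.52 in WT, 9.04 and 8.36 in Batf3 KO and 8.35 and 7.87 in Id2 KO, so the genotypes overlapped. Compared among the higher-signal arrays alone, the WT step had a median of 1.10 with 29 of 32 genes up, against 51.1% of all genes. Among the lower-signal arrays it had a median of 0.77 with 25 up, against 57.0% of all genes. The Batf3 KO step gave 0.95 and 0.77, and the Id2 KO step 0.73 and 0.55. For Batf3 KO against WT in Zbtb46-GFP+ cells the median was 0.20 in the higher-signal pair. There 20 of 32 genes were above 0, not far from the 55.5% of all genes. In the lower-signal pair the median was 0.36 with 28 above 0, against 47.8% of all genes. With the signal set as a block, limma called 25, 25 and 22 of the 32 genes in the WT, Batf3 KO and Id2 KO steps, and 4 (Usp18, Oas3, Ifit2 and Cmpk2) for Batf3 KO against WT in Zbtb46-GFP+ cells. The block was set from the signal of these same arrays. The share of all genes called with it is not given here, so the added calls are not shown to be particular to the 32 genes.

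The replicate 1 arrays gave 1 further pair per genotype contrast, with no test. Between WT and Batf3 KO they read identical values for 71.7% of all probe sets and for 6 of the 32 genes. Of the other 26 genes all were higher in Batf3 KO, with a median difference of 0.41 over the 32, while 46.6% of all untied genes were higher. Ifit3 differed most, with 6.46 in WT and 8.55 in Batf3 KO, and Samd9l read 9.99 and 10.42. Xist read 10.53 in WT and 11.02 in Batf3 KO on these arrays, so here the pair was alike in it, unlike on the 12 arrays. Between Id2 KO and WT the replicate 1 arrays were split, with 11 genes higher, 14 lower and 7 tied, while 54.4% of all untied genes were higher. Between Id2 KO and Batf3 KO 25 were lower, 3 higher and 4 tied, while 56% of all untied genes were higher in Id2 KO.

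**Figure D4:**
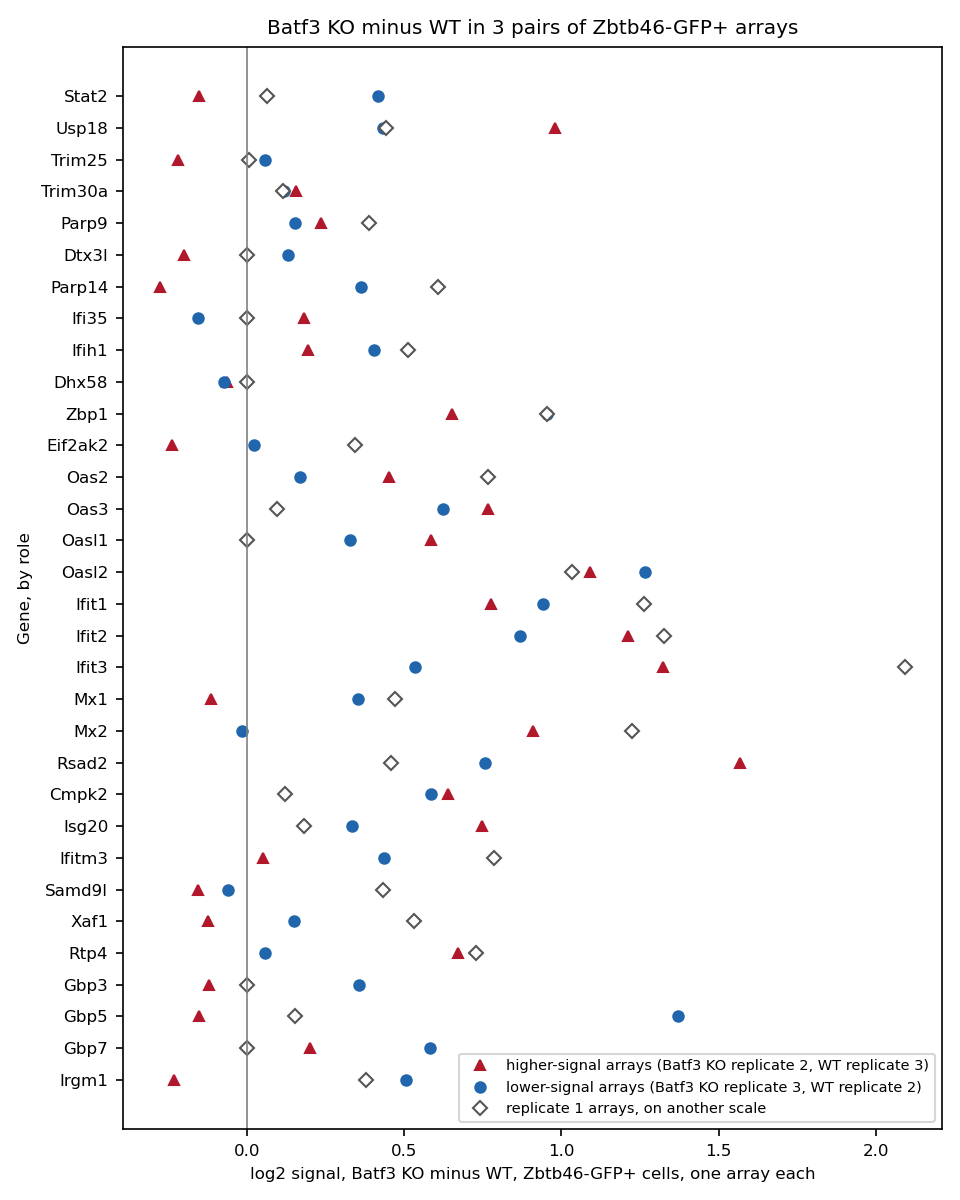
Log2 signal in Batf3 KO minus WT Zbtb46-GFP+ cells (x axis) for each of the 32 genes (y axis), with 1 array of each genotype per point: the higher-signal pair, the lower-signal pair, and the replicate 1 pair on another scale. Oasl2, Ifit1, Ifit2, Ifit3, Rsad2 and Zbp1 are among the genes to the right of 0 in all 3 pairs, as are Usp18, Oas2 and others. Ifit3 reaches 2.09 in the replicate 1 pair.

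The genes that make, receive and relay the interferon signal were taken as a further list of 42, of which 38 were measured. In the WT step 12 of the 38 were higher and 1 lower, in Batf3 KO 11 and 1, and in Id2 KO 8 and 1, beside the shares of all genes given above. None of the 7 measured interferon genes, Ifnb1, Ifna2, Ifna4, Ifne, Ifnk, Ifnl2 and Ifng, was called in any step, and Ifnb1 read 5.26 to 5.84 on all 12 arrays. Irf7, the master factor of interferon alpha and itself an interferon target, rose by 2.79 in WT, 2.31 in Batf3 KO and 2.37 in Id2 KO. Irf5 rose by 1.91, 1.42 and 1.20, Jak2 by 1.52, 1.27 and 1.77, and the RNA sensor gene Ddx58, which encodes RIG-I, by 1.47, 2.06 and 1.88. Irf2 and Tlr9 also rose in all 3 steps, Tyk2, Myd88, Ticam1 and Ifngr1 in WT and Batf3 KO, and Irf9, the DNA-binding partner of STAT2, in WT (0.64). Ikbke, a kinase that activates IRF3, fell by 0.84, 0.92 and 0.77. Ptpn6, a phosphatase that opposes JAK signalling, rose in Id2 KO (0.53).

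Between genotypes the list changed at a receptor for double-stranded RNA. Tlr3 read 5.43 to 5.68 on all 6 CDP arrays, and 11.56 and 11.59 in WT, 9.21 and 9.48 in Batf3 KO and 7.77 and 7.82 in Id2 KO Zbtb46-GFP+ cells. The difference from WT was -2.23 ± 0.14 in Batf3 KO and -3.78 ± 0.14 in Id2 KO (limma adjusted p = 1.39e-05 and 1.776e-07). Ifngr1, a chain of the interferon gamma receptor, read 10.96 and 11.48 in WT, 10.72 and 10.42 in Batf3 KO and 9.96 and 9.59 in Id2 KO Zbtb46-GFP+ cells. It was lower than in WT by -1.44 ± 0.21 in Id2 KO (limma adjusted p = 0.00469) and measured -0.65 in Batf3 KO. Irf5 was lower in Id2 KO by -0.68, at 10.33 and 10.39 against 10.88 and 11.20 in WT. None of these 3 genes is among the 32, and no other gene of the list was called between genotypes in Zbtb46-GFP+ cells.

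Markers of other cells moved with some of these comparisons. The summed signal of 6 neutrophil markers was 4090 to 18222 on the CDP arrays, 15323 to 17144 in WT Zbtb46-GFP+ cells, 20529 to 28811 in Batf3 KO and 38983 to 40518 in Id2 KO, and S100a8, S100a9, Ngp and Camp rose in both knockout steps. In the WT step 0 of the 6 were called higher and 1 lower. Elane of this list went the other way, from 9.43 and 9.58 in WT CDPs to 7.85 and 7.13 in WT Zbtb46-GFP+ cells. Its mean was also lower in Zbtb46-GFP+ cells in both knockouts. The summed signal of 7 pDC markers was 3862 to 5359 in WT, 5919 to 8952 in Batf3 KO and 15940 to 17364 in Id2 KO Zbtb46-GFP+ cells, and 6 of the 7, including Bst2, which interferon itself induces, were higher in Id2 KO than in WT. The summed signal of 5 monocyte and macrophage markers was 1824 to 3017 on the CDP arrays. In Zbtb46-GFP+ cells it was 4467 to 4815 in WT, 5484 to 5784 in Batf3 KO and 3650 to 3675 in Id2 KO. Adgre1 was higher there in Batf3 KO than in WT by 1.56. The lower Id2 KO sum did not hold marker by marker. Ccr2, the brightest, and Adgre1 had lower means in Id2 KO than in WT, but Fn1, Fcgr1 and Cd14 had higher means. The median difference of the 5 markers was 0.23, with 0 called higher and 1 lower. Lymphoid sums were lower on the Zbtb46-GFP+ arrays, mainly through Vpreb1 and Nkg7. The 4 B lineage markers summed to 401 to 665 on the CDP arrays and 216 to 356 on the Zbtb46-GFP+ arrays. The 5 T and NK markers summed to 498 to 824 and 280 to 415. Nkg7 was lower in all 3 steps and Vpreb1 in WT and Batf3 KO. Median changes of the B lineage list were 0.08 in WT, 0.13 in Batf3 KO and 0.04 in Id2 KO. Those of the T and NK list were 0.15, 0.24 and -0.06. The 2 measured erythroid markers summed to 107 to 189. The part of these markers in the results was not tested.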

How the data were processed

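Gene expression was measured on 15 Affymetrix arrays, from biotinylated cDNA made with a WT Pico kit from 100 pg to 2 ng of total RNA, per the labels' protocols. The deposited values are intensity, a linear probe set signal after RMA in Affymetrix Expression Console, per the submitters' processing notes, with no version given. Log2 was taken here. Of 28853 probe sets, 21789 had a single gene symbol, and the probe set with the highest mean was kept for each of 19938 genes.

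The 12 arrays on one scale were fitted with limma 3.58.1 (R 4.3.3, statmod 1.5.0): a mean for each of 6 groups, moderated variances with no trend, two-sided p-values adjusted by Benjamini-Hochberg across all genes, separately for 10 comparisons, and a threshold of 0.05. The fit has 6 residual degrees of freedom, and the number of arrays limits the precision. On simulated data for Id2 KO against WT Zbtb46-GFP+ cells (19938 genes), 72 of 100 genes changed by a log2 of 1 were called. Of 100 genes changed by 2, 96 were called, and 6 of all 174 calls were false. Both figures describe the simulated data only. Recovery and false calls under shifts shared by many genes or arrays, as described above, were not tested.

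The genes and lists were chosen with earlier results of these data known. Values on each of the 12 arrays are given for interferon-stimulated genes called between genotypes, and for the called gene of each role with the largest change in each step; Rsad2, Ifit2, Gbp7, Gbp5 and the unadjusted differences were picked after their values were seen. Promoters come from RefSeq. Alternatives were all 15 arrays with and without a term for the 3, other scalings, blocks, probe set and filter rules, and leaving out each array. Replicate numbers did not pair the arrays across all groups, but CDP arrays of the same number shared part of their residuals.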

Additional observations from a re-analysis of the deposited data

Results flagged for a closer look

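Among the interferon-stimulated genes and the signalling list, 3 values of the test of knockout against stage passed, all in the signalling list. The step of Tlr3 from CDP to Zbtb46-GFP+ cells was smaller than in WT by an interaction of -2.32 in Batf3 KO (limma adjusted p = 0.000941) and -3.90 in Id2 KO (1.06e-05). The step of Ifngr1 was smaller in Id2 KO, with an interaction of -1.65 (limma adjusted p = 0.0488).
Over all genes this test called 19 for Batf3 KO (0.0953%) and 64 for Id2 KO (0.321%). Outside both lists, calls are given here only for the targeted genes and the cell type markers. Among these, the test passed for Batf3 (-2.79 in Batf3 KO, -1.55 in Id2 KO) and for the pDC marker Ly6d in Id2 KO (3.74).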

How the results depend on the processing

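Counts below are of the 32 genes called by limma in the WT, Batf3 KO and Id2 KO steps, which were 19, 17 and 12. The share of all genes called under each setting is not given, so changes in count are not shown to be particular to the 32 genes. On all 15 arrays with no term for the 3 on another scale they were 0, 0 and 0, and of the 96 changes 33 took the other sign. Of these, 17 had an unadjusted p of 0.05 or more on the 12 arrays, and the others were, in WT, Trim30a -0.11, Ifi35 -0.12, Dhx58 -0.23 and Rsad2 -0.18, in Batf3 KO, Stat2 -0.10, Trim30a -0.35, Ifi35 -0.29, Dhx58 -0.55 and Oasl1 -0.35, and in Id2 KO, Stat2 -0.17, Trim30a -0.58, Ifi35 -0.30, Oas3 -0.069, Rsad2 -0.33, Cmpk2 -1.24 and Isg20 -0.10. These 3 arrays have lower medians, and with a term for them the counts were 19, 19 and 13. The signal block, set from the signal of the same arrays, gave 25, 25 and 22. The replicate block gave 18, 16 and 10. Residuals of same-numbered arrays correlated from -0.63 to 0.683, so the numbers did not pair arrays across all groups. Among CDP arrays of different genotypes, same-numbered arrays correlated by 0.53 to 0.683. Replicate 1 was the higher-signal CDP array in each genotype. What this shared difference between CDP arrays reflects was not tested. Leaving out each array in turn gave 9 to 21, 12 to 18 and 3 to 13, with 7, 12 and 3 of the called genes kept throughout; the lowest counts came without WT Zbtb46-GFP+ replicate 3 (9), Batf3 KO CDP replicate 2 (12) and Id2 KO Zbtb46-GFP+ replicate 2 (3), and the WT count was 11 and 12 without WT CDP replicates 2 and 1 and the Id2 KO count 6, 7 and 8 without Id2 KO CDP replicates 2 and 1 and Id2 KO Zbtb46-GFP+ replicate 3.

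For Batf3 KO against WT in Zbtb46-GFP+ cells the count of 0 became 4 with the signal block and 0 to 1 on leaving out an array. For Id2 KO against WT the count of 1 became 0 on 15 arrays with or without the term, with centring on the 75th percentile, with quantile normalization and with a trend, 2 with the signal block (Cmpk2 and Gbp7), 2 with the replicate block (Cmpk2 and Samd9l) and 0 to 1 on leaving out an array. For Id2 KO against Batf3 KO the count of 0 became 1 with the term, 2 with quantile normalization, 6 with the signal block and 0 to 1 on leaving out an array. The interaction of Id2 KO with stage became 1 (Cmpk2) with the signal block. Of the 49 calls, 43 were kept with centring on the 75th percentile, which moved the median of all genes in the WT step to 0.16, 48 with quantile normalization, 47 with a trend, and all 49 with the mean of probe sets, without X and Y genes and with the signal block. With only genes at or above the median mean signal, 46 of the calls could be tested and 44 were kept.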
